A study of Mus musculus with 32 samples.

Results

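The genes of MHC class I peptide presentation were followed in hippocampal RNA of 12-month-old mice. The genes are B2m, H2-D1, H2-K1, Tap1, Tap2, Tapbp, Psmb8, Psmb9, Psmb10 and Nlrc5, and they were found by their names in the deposited tables, as 10 of 54532 genes. RNA-seq was done on 32 mice, and each of the 4 groups held 4 female and 4 male animals. Wild-type groups are called WT/Veh and WT/D-45113, and transgenic groups carry the names 5xFAD/Veh and 5xFAD/D-45113. All mice were on C57BL/6, the wild-type being labelled C57BL/6J, and were perfused before hippocampi were dissected. 5xFAD mice express mutant human genes of familial AD, driven by Thy1 regulatory sequences and so active mainly in neurons, and deposit amyloid in the brain. The compound D-45113 couples a hydroxyl dendrimer (HD) to an inhibitor of CSF1R, the kinase receptor that keeps microglia alive. Mice of the D-45113 groups received 200 mg/kg intraperitoneally 2 times per week for 4 weeks, and the Veh groups of both genotypes received HD without the inhibitor, so the dendrimer itself was common to the 4 groups.

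MHC class I molecules sit on the cell surface as a heavy chain bound to beta-2-microglobulin and show peptides cut from the cell's own proteins to CD8 T cells and NK cells. The peptides are cut in the cytosol by the proteasome, carried into the endoplasmic reticulum by the TAP transporter and loaded onto the heavy chain with the help of tapasin. Interferons switch the set on together, partly through the regulator NLRC5, and in the brain microglia are known to carry more class I than neurons at rest.

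The files place 7 of the 10 genes in the MHC region of chromosome 17 (mm10). From one end these are Tapbp (chr17:33915899-33929288), H2-K1 (chr17:33996017-34000333, minus strand), Psmb9 (chr17:34181988-34187764, minus strand), Tap1 (chr17:34187553-34197225), Psmb8 (chr17:34197721-34201454), Tap2 (chr17:34203527-34216321) and H2-D1 (chr17:35262730-35267499). B2m lies at chr2:122147686-122153083, Nlrc5 at chr8:94434356-94527272 and Psmb10 at chr8:105935735-105938444 on the minus strand. Psmb9 and Tap1 run in opposite directions and share 212 bases at their starts. The gap from Tap1 to Psmb8 is 495 bases and that from Psmb8 to Tap2 is 2072 bases, with 0 other protein-coding genes in either. Tapbp shares 3421 bases with Zbtb22 on the same strand. On the opposite strand B2m shares 5398 bases with Patl2, Tap2 3148 with Gm15821, Psmb8 2139 with Gm20496, Psmb10 2710 with Gm16156 and Nlrc5 748 with 9330175E14Rik. These opposite-strand genes had at most 12 counts in a mouse. Whether counting used strand is not given in the sources used here, so counts of Tapbp, Tap1, Psmb9 and these other members are uncertain to that extent. Counts of H2-D1 and H2-K1 are uncertain too, since reads of near-identical class I genes may be divided among them.

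Upstream sequence is shown for the heavy chains, for B2m and for the stretch between the RefSeq starts of Psmb9 and Tap1. These genes rose in 5xFAD/Veh mice, as did the other members, and the last stretch lies before the RefSeq starts of a pair of them. The RefSeq start lay 434 bases from the start in the files for Psmb9, 364 for H2-D1, 474 for Psmb8 and 3579 for Tapbp. The windows of these genes therefore lie inside the genes as the files place them. The sequences are the 250 bases before the transcript start in RefSeq (GRCm38.p6), 5′ to 3′ on the gene's strand, at chr2:122147437-122147686 for B2m, chr17:34000334-34000583 (minus strand) for H2-K1 and chr17:35262844-35263093 for H2-D1. The fourth is the 225 bases that the upstream windows of Tap1 and Psmb9 have in common, chr17:34187331-34187555, written on the strand of Tap1. Capitals mark matches on either strand to 4 motifs of class I promoters, NF-kB (GGG, any pair of bases, TTCCC), AANNGAAA (IRF), TGACG (X2) and CCAAT (Y).
B2m: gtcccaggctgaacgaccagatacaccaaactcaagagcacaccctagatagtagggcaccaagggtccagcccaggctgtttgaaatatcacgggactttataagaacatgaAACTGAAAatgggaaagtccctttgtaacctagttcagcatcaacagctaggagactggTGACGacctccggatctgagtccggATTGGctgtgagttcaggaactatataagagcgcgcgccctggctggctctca
H2-K1: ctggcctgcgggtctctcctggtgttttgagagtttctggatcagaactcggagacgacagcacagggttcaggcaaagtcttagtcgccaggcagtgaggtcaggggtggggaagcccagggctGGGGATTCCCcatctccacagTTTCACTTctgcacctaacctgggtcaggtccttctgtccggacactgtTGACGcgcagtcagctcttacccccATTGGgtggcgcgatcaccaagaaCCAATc
H2-D1: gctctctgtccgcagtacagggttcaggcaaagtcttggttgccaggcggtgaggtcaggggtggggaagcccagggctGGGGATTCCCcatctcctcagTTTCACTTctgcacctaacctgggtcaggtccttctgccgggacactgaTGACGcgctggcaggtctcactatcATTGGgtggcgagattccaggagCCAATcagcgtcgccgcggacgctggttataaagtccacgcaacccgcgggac
Tap1 and Psmb9: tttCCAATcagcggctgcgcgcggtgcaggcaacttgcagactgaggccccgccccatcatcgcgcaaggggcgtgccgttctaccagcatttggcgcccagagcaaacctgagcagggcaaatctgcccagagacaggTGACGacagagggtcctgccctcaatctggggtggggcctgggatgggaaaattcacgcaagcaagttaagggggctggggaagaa

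Of the RefSeq starts of H2-K1, 2 are listed and 1 is shown, and both held all 4 motifs. H2-D1 and H2-K1 held the motifs in the same order and at the same distances from each other up to the first Y match, while the second Y match lay 1 base farther on in H2-K1. B2m held IRF, X2 and Y, and its X2 and Y matches were as far apart as X2 and the first Y match of both heavy chains. The stretch shared by Tap1 and Psmb9 held X2 and Y. Among the members not printed, Tapbp held 2 Y matches, Psmb8 held only a match to TTCNNNGAA (GAS, the gamma-activated site) and Psmb10 held none of the 5 motifs. Of the 10 genes, 8 were matched in the promoter table, and Tap2 and Nlrc5 were not. Among 32851 RefSeq promoters of the same length, 1.53% held NF-kB, 21.3% IRF, 17.8% X2, 33.9% Y and 7.02% GAS, and 14 promoters (0.043%) of 13 genes held the first 4 motifs together. The matches did not overlap each other in these windows, and a match describes letters, not a bound site.

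**Figure D1:**
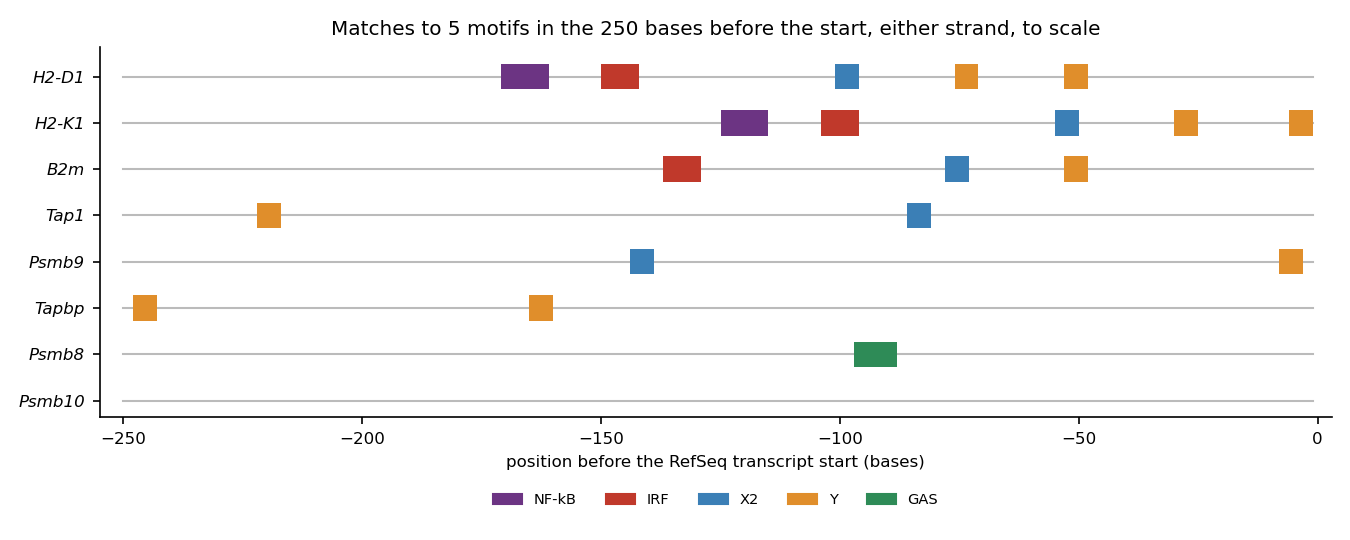
Matches to 5 motifs in the 250 bases before the RefSeq transcript start of 8 members. The horizontal axis gives bases before the start and each block is a match drawn to scale. H2-D1 and H2-K1 hold the same order of NF-kB, IRF, X2 and Y, and Psmb10 has none.

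Total counts per mouse ranged from 10707410 to 30368498. Low counts were filtered, which left 16723 genes including all 10 members, and a single edgeR quasi-likelihood model was fitted to the 32 mice. Levels are CPM, counts scaled to a common library size with TMM factors, and a gene is said to have risen or fallen where the p adjusted over all genes tested (Benjamini-Hochberg) is at most 0.05. The labels give each library as a separate animal of its group. Thy1, the gene that lends the transgenes their promoter, was above every WT mouse (at most 529 CPM) in 14 of 16 5xFAD mice, the exceptions being 5xFAD/D-45113 mice 4F (523 CPM) and 1M (423 CPM). The hippocampal label was checked with 10 neuron genes, whose summed level ran from 2995 to 11660 CPM, and with 10 thalamus genes, whose summed level ran from 186 to 1455 CPM in WT/Veh, from 194 to 1826 CPM in WT/D-45113, from 172 to 479 CPM in 5xFAD/Veh and from 312 to 1738 CPM in 5xFAD/D-45113.

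Levels of different genes are compared per length, as the FPKM values in the tables. In WT/Veh mice B2m was the highest of the 10 genes at 110.3 ± 7.62 FPKM (SD, n = 8). H2-D1 followed at 18.6 ± 1.94 FPKM and H2-K1 at 15.6 ± 2.49 FPKM, with overlapping ranges (16.3 to 21.8 and 12.4 to 19.0). Psmb10 at 11.9 ± 2.79 FPKM and Tapbp at 10.6 ± 1.76 FPKM also overlapped. The rest lay far below, with Tap2 at 1.74 ± 0.297 FPKM, Psmb8 at 1.08 ± 0.212 FPKM, Tap1 at 0.694 ± 0.154 FPKM, Psmb9 at 0.368 ± 0.139 FPKM and Nlrc5 at 0.0794 ± 0.0577 FPKM. Each neighbour in this order overlapped the next, except that B2m was wholly above H2-D1 and Tapbp wholly above Tap2.

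To determine how the genotype changed class I genes, 5xFAD/Veh mice were compared with WT/Veh mice. All 10 genes rose in 5xFAD/Veh mice, 7 of them by more than 3.5-fold, and their median log2 fold change was 1.90 against -0.015 over all genes tested. Of all 16723 genes, 3.65% rose in this comparison and 0.209% fell (3.86% in either direction). In 8 of the 10 genes every 5xFAD/Veh mouse was above every WT/Veh mouse, which held for 2.21% of all genes.

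The light chain and the heavy chains rose 3.5-fold to 4.2-fold. B2m, the light chain of every class I molecule, had 84.4 CPM in the lowest WT/Veh mouse, a median of 93.5 and 105 in the highest. In 5xFAD/Veh mice its lowest, median and highest levels were 301, 340 and 484 CPM. The groups did not overlap, and the lowest 5xFAD/Veh mouse was far above the highest WT/Veh mouse (log2 fold change 1.96, SE 0.142, edgeR adjusted p = 6.51e-12). H2-D1, a classical heavy chain, went from 41.0, 47.2 and 54.4 CPM (lowest, median and highest) in WT/Veh to 101, 201 and 306 CPM in 5xFAD/Veh. H2-K1, the other classical heavy chain of C57BL/6, went from 31.9, 40.4 and 49.0 CPM to 112, 127 and 200 CPM. Both heavy chains were wholly separated between the groups. Their log2 fold changes were 2.06 (SE 0.167, edgeR adjusted p = 3.65e-11) for H2-D1 and 1.82 (SE 0.152, edgeR adjusted p = 6.27e-11) for H2-K1.

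The transport and loading genes split by size. Tap1, one chain of the peptide transporter, had 2.39, 3.94 and 4.87 CPM in WT/Veh (lowest, median, highest) and 10.2, 13.3 and 37.7 CPM in 5xFAD/Veh. Tap2, the partner chain, had 4.85, 6.62 and 8.24 CPM in WT/Veh and 10.5, 12.0 and 16.8 CPM in 5xFAD/Veh. In both genes the 5xFAD/Veh mice were all above the WT/Veh mice, though the step was larger for Tap1. The log2 fold change of Tap1 was 2.12 (SE 0.219, edgeR adjusted p = 6.15e-09) and that of Tap2 was 0.95 (SE 0.139, edgeR adjusted p = 6.22e-06). Tapbp, which codes for tapasin, had 28.7, 32.5 and 43.4 CPM in WT/Veh and 50.7, 59.9 and 84.0 CPM in 5xFAD/Veh (log2 fold change 0.92, SE 0.134, edgeR adjusted p = 5.86e-06). A difference between Tap1 and Tap2 in their response was not tested.

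The 3 genes of the immunoproteasome, the form of the proteasome that interferons induce, also differed in size. Psmb8, its chymotrypsin-like subunit, had 2.04, 2.93 and 3.84 CPM in WT/Veh and 9.69, 12.9 and 15.4 CPM in 5xFAD/Veh (log2 fold change 2.11, SE 0.228, edgeR adjusted p = 1.72e-08). Psmb9 had 0.250, 1.47 and 1.80 CPM in WT/Veh and 3.84, 5.38 and 10.01 CPM in 5xFAD/Veh (log2 fold change 2.20, SE 0.321, edgeR adjusted p = 5.66e-06). Neither gene overlapped between the groups. Psmb10 started from a higher level, with 14.0, 20.03 and 27.6 CPM in WT/Veh and 23.7, 31.9 and 41.5 CPM in 5xFAD/Veh. Its groups overlapped, with 6 of 8 5xFAD/Veh mice above all WT/Veh mice (log2 fold change 0.68, SE 0.147, edgeR adjusted p = 0.00233).

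Nlrc5, the transcriptional coactivator of class I genes, was the least abundant. Its lowest, median and highest levels were 0, 0.678 and 1.29 CPM in WT/Veh (0 to 35 counts) and 1.23, 1.95 and 5.03 CPM in 5xFAD/Veh (34 to 85 counts), so 7 of 8 5xFAD/Veh mice were above all WT/Veh mice. The log2 fold change was 1.84 (SE 0.508, edgeR adjusted p = 0.0268). The adjusted p of Nlrc5 rose above 0.05 without WT/Veh mouse 4F (0.0587) or 2M (0.0621), or without 5xFAD/Veh mouse 1F (0.0837) or 1M (0.0525).

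**Figure D2:**
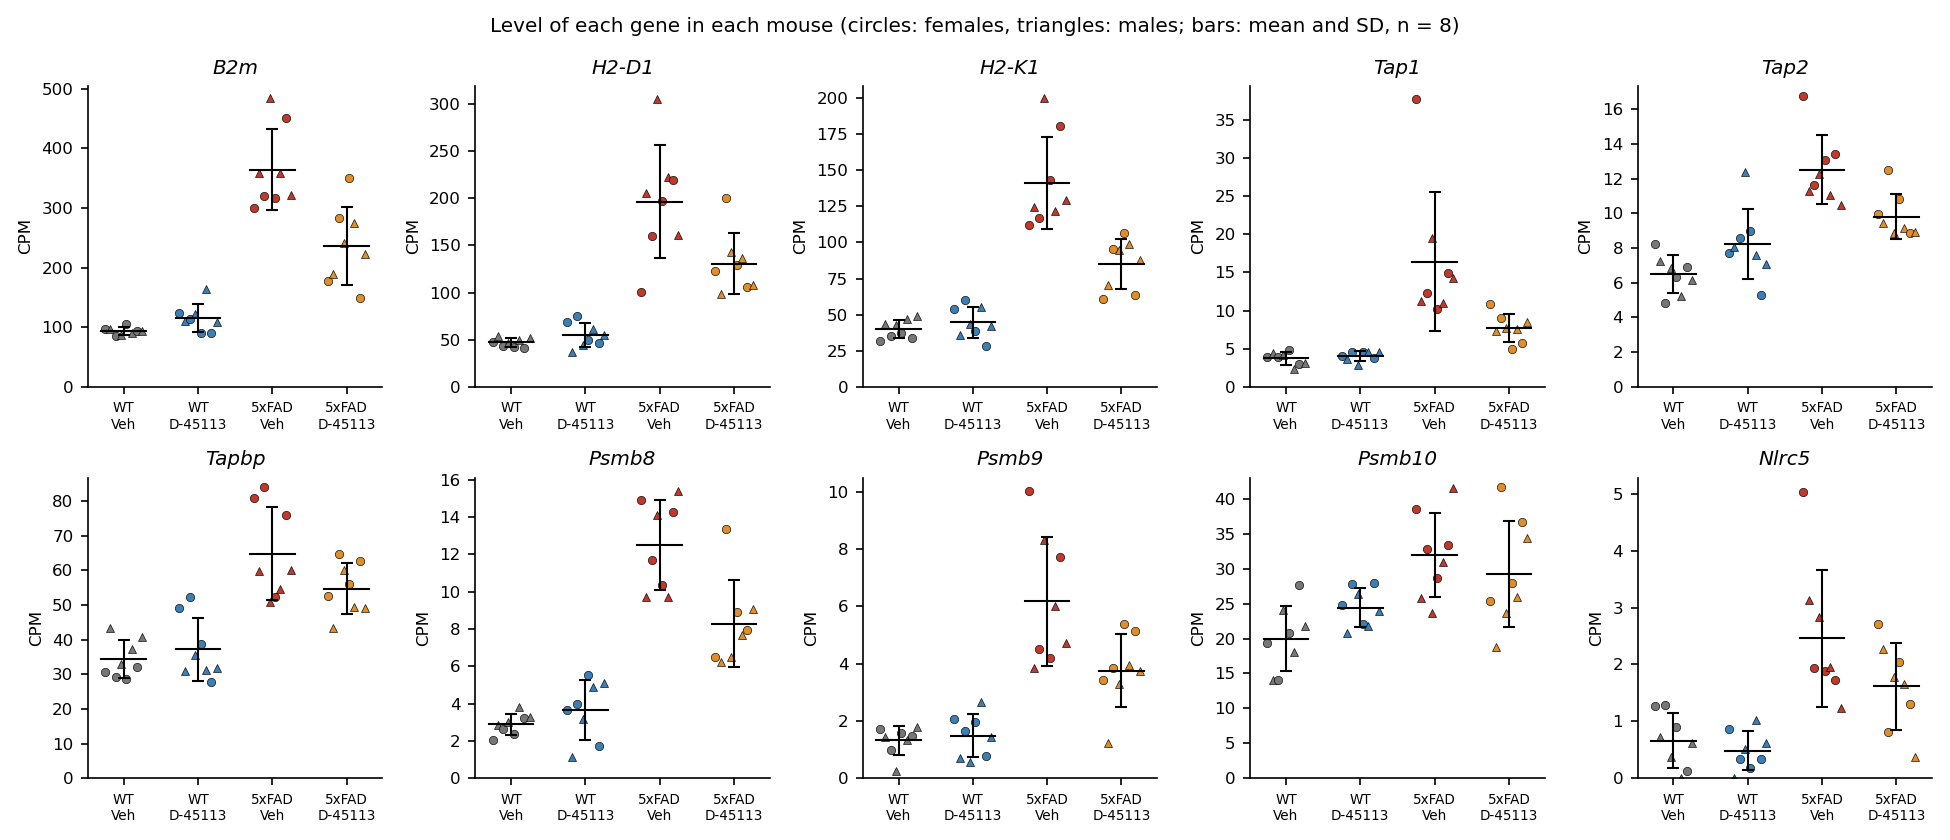
CPM of the 10 genes in each of the 32 mice by group. Circles are females and triangles males, and bars give the mean and SD (n = 8). B2m runs from 84.4 to 105 CPM in WT/Veh and from 301 to 484 CPM in 5xFAD/Veh, while the 5xFAD/Veh and 5xFAD/D-45113 mice overlap in all genes except H2-K1.

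Markers of microglia rose in the same comparison. All 10 microglia markers rose in 5xFAD/Veh mice and 0 of them was at 0 in any group, and their summed level was 415 to 588 CPM in WT/Veh and 1016 to 1353 CPM in 5xFAD/Veh, without overlap. All 10 genes of a list of disease-associated microglia rose too, with a median log2 fold change of 2.24 against 1.19 for the microglia markers, and summed to 366 to 634 CPM in WT/Veh and 1227 to 1925 CPM in 5xFAD/Veh. Choroid plexus and thalamus markers had negative log2 fold changes in 10 of 10 genes each (medians -1.79 and -0.96), and 0 of them passed. Of the border macrophage and monocyte markers 1 of 9 rose, and of the astrocyte markers 2 of 7 rose (7 of 7 positive, median 0.14). The part of these other lists in the class I values of this comparison was tested only by the covariate fit with thalamus and choroid plexus scores, in which all 10 members still passed. With a microglia score of each mouse as a covariate, the log2 fold changes of B2m, H2-D1, H2-K1, Tap1, Tapbp and Psmb8 still passed the edgeR test. Those of Tap2 (0.83, adjusted p = 0.0818), Psmb9 (1.87, adjusted p = 0.0724), Psmb10 (0.75, adjusted p = 0.211) and Nlrc5 (1.89, adjusted p = 0.502) did not. Without the covariate these values were 0.95, 2.20, 0.68 and 1.84. Over all genes, 173 rose with the covariate and 611 without it. The microglia score ran from -0.66 to -0.214 in WT/Veh and from 0.588 to 0.932 in 5xFAD/Veh. It did not overlap, so this fit can separate the score from genotype only in part. In bulk tissue, more cells of a type and more RNA per cell cannot be told apart. T and NK cell markers (12 genes) summed to 16.04 to 68.2 CPM in WT/Veh and 8.46 to 42.2 CPM in 5xFAD/Veh, and 0 of the 3 that could be tested passed. Fold changes did not follow the sum, with 2 of the 3 positive (median 0.29). The mean score of the tested genes was 0.115 in WT/Veh and 0.69 in 5xFAD/Veh.

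To examine the effect of D-45113 in diseased mice, 5xFAD/D-45113 mice were compared with 5xFAD/Veh mice. B2m, H2-D1, H2-K1 and Tap1 fell, by 33.4% to 52.6% on the fitted scale, while the other 6 genes had negative log2 fold changes that did not pass. The median of the 10 genes was -0.60 against 0.008 over all genes. Of all 16723 genes, 1.75% fell and 2.21% rose in this comparison (3.96% in either direction). H2-K1 was the only member whose groups did not overlap, which held in this direction for 0.221% of all genes.

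B2m had 148, 232 and 350 CPM (lowest, median, highest) in 5xFAD/D-45113 against 301, 340 and 484 CPM in 5xFAD/Veh. All 5xFAD/D-45113 mice except 3F were below every 5xFAD/Veh mouse (log2 fold change -0.63, SE 0.138, edgeR adjusted p = 0.00941). H2-K1 had 61.1, 91.5 and 107 CPM against 112, 127 and 200 CPM (log2 fold change -0.73, SE 0.148, edgeR adjusted p = 0.00588). Tap1 had 5.01, 7.64 and 10.9 CPM against 10.2, 13.3 and 37.7 CPM, and only mouse 1F of 5xFAD/D-45113 reached the 5xFAD/Veh range (log2 fold change -1.08, SE 0.211, edgeR adjusted p = 0.00465). B2m, H2-K1 and Tap1 kept their calls with each of the 32 mice left out in turn.

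H2-D1 had 98.6, 126 and 200 CPM against 101, 201 and 306 CPM. Its groups overlapped over most of their range, since 5xFAD/Veh mouse 1F was low (101 CPM) and 5xFAD/D-45113 mouse 2F was high (200.3 CPM). The log2 fold change was -0.59 (SE 0.161, edgeR adjusted p = 0.0323). H2-D1 lost its call without any of 7 mice, which were 5xFAD/Veh 4F (adjusted p = 0.0622), 2M (0.0875) and 3M (0.0561) and 5xFAD/D-45113 1F (0.0529), 4F (0.0707), 1M (0.0701) and 4M (0.0535). With 3F and 4F of 5xFAD/D-45113 left out together, its log2 fold change was -0.54 (edgeR adjusted p = 0.107).

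Among the genes that did not pass, Psmb8 was nearest. It had 6.25, 7.82 and 13.4 CPM against 9.69, 12.9 and 15.4 CPM, and all 5xFAD/D-45113 mice except 2F were below every 5xFAD/Veh mouse (log2 fold change -0.60, SE 0.217, edgeR adjusted p = 0.108). Without mouse 2F the log2 fold change of Psmb8 was -0.73 with an adjusted p of 0.047. Tap2 had 8.88, 9.28 and 12.5 CPM against 10.5, 12.0 and 16.8 CPM, with 6 of 8 mice below all 5xFAD/Veh mice (log2 fold change -0.35, adjusted p = 0.142). Psmb9 had 1.22, 3.80 and 5.38 CPM against 3.84, 5.38 and 10.01 CPM (log2 fold change -0.72, adjusted p = 0.174). The remaining 3 genes overlapped broadly, with log2 fold changes of -0.24 for Tapbp, -0.12 for Psmb10 and -0.60 for Nlrc5 (adjusted p = 0.312, 0.696 and 0.54).

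**Figure D3:**
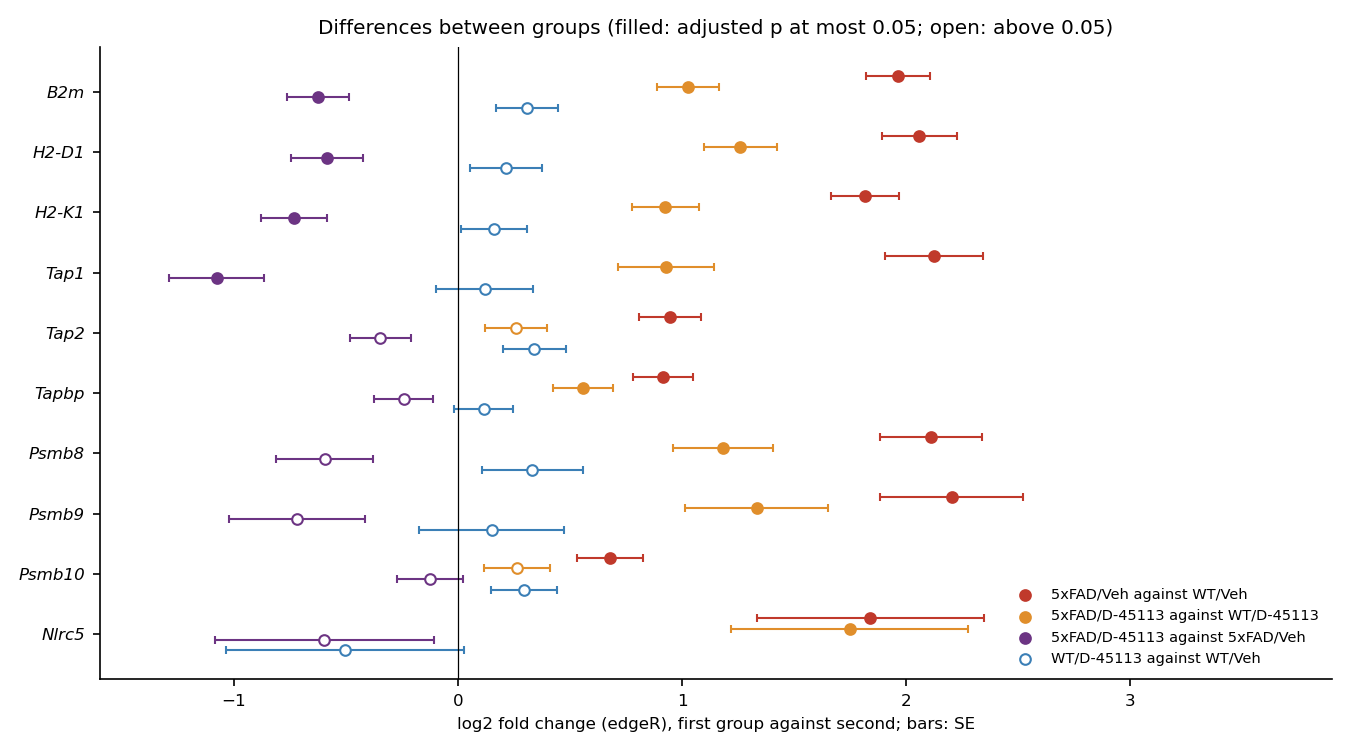
edgeR log2 fold changes of the 10 genes in 4 comparisons, with SE bars. Filled points have an adjusted p of at most 0.05. All 10 points of 5xFAD/Veh against WT/Veh are filled and above 0.6, and 4 points of 5xFAD/D-45113 against 5xFAD/Veh are filled and below -0.5.

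Other measurements moved with the treatment comparison. Of the 10 microglia markers, 5 fell (Csf1r, P2ry12, Tmem119, Itgam and Fcrls), and the list summed to 1016 to 1353 CPM in 5xFAD/Veh and 670.1 to 1163 CPM in 5xFAD/D-45113. Of the disease-associated microglia genes 1 of 10 fell (median -0.43, 10 of 10 negative). With the microglia score as a covariate, Tap1 was the only member that passed, and the values were -0.38 for B2m (adjusted p = 0.296), -0.66 for H2-D1 (adjusted p = 0.141) and -0.72 for H2-K1 (adjusted p = 0.0882). Thalamus markers were higher in 5xFAD/D-45113 (10 of 10 positive, 3 passed), and choroid plexus markers summed to 34.1 to 814 CPM in 5xFAD/Veh and 56.2 to 5202 CPM in 5xFAD/D-45113 (1 passed). Hippocampal neuron markers were negative in 10 of 10 genes (median -0.45, 1 fell), border macrophage and monocyte markers positive in 8 of 9 (median 1.13, 1 rose) and meninges and fibroblast markers positive in 7 of 7 (median 0.75, 1 rose). The part of these 3 lists in the class I values was not tested. With thalamus and choroid plexus scores as covariates, H2-K1 passed and B2m (-0.61, adjusted p = 0.244), H2-D1 (-0.75, adjusted p = 0.192) and Tap1 (-0.82, adjusted p = 0.335) did not. Without covariates the log2 fold changes of B2m, H2-D1 and Tap1 were -0.63, -0.59 and -1.08. Over all genes the main fit called 370 higher and 292 lower, and either covariate fit called far fewer. Whether class I genes lost calls more or less often than other genes was not tested. When 1M and 4F of 5xFAD/D-45113 were left out, which had Thy1 in the WT range, H2-K1 and Tap1 passed, and B2m (-0.50, adjusted p = 0.0608) and H2-D1 (-0.49, adjusted p = 0.156) did not. In 5xFAD/D-45113 against WT/D-45113, leaving out the same mice ended only the call of Nlrc5 (1.70, adjusted p = 0.113).

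Immune cells other than microglia were also measured. T and NK cell markers summed to 8.46 to 42.2 CPM in 5xFAD/Veh and 3.49 to 24.4 CPM in 5xFAD/D-45113, and 0 of the 3 tested passed. Of these 3 genes, 1 had a positive log2 fold change (median -0.98). Cd8a, the receptor chain that binds class I on T cells, had a log2 fold change of -1.48 (edgeR adjusted p = 0.326). Ncr1, an NK cell receptor, was at 0 in all 16 mice given D-45113 and above 0 in some mice of each Veh group. Neutrophil markers (6 genes) summed to 0.0649 to 1.30 CPM in 5xFAD/Veh and 1.98 to 6.17 CPM in 5xFAD/D-45113, with Ly6g at 0 in both groups, and 2 of the 2 that could be tested rose (median 2.88). In WT mice the same markers summed to 0 to 1.17 CPM with Veh and 1.67 to 15.4 CPM with D-45113, and 0 of 2 passed (median 2.96). Their part in the class I values was not tested.

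In WT mice, D-45113 changed 0 of the 10 genes (WT/D-45113 against WT/Veh), where 0.0179% of all genes rose and 0.00598% fell (0.0239% in either direction). At an unadjusted p under 0.05 there were 2 members, B2m and Tap2, and 1139 genes in all, and with DESeq2 also 0 members passed. B2m had 90.3, 113 and 164 CPM in WT/D-45113 against 84.4, 93.5 and 105 CPM in WT/Veh, and 6 of 8 treated mice were above all WT/Veh mice (log2 fold change 0.31, SE 0.138, edgeR adjusted p = 0.676). Tap2 had 5.28, 7.91 and 12.4 CPM against 4.85, 6.62 and 8.24 CPM (log2 fold change 0.34, SE 0.139, edgeR adjusted p = 0.644). Psmb10 had 20.8, 24.4 and 27.9 CPM against 14.0, 20.03 and 27.6 CPM (log2 fold change 0.29, SE 0.147, edgeR adjusted p = 0.748). The fold changes of the other members lay within 2 SE of 0, from -0.50 for Nlrc5 to 0.33 for Psmb8, and 9 of 10 were positive.

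To see what remained of the genotype difference under treatment, 5xFAD/D-45113 mice were compared with WT/D-45113 mice. There 8 of the 10 genes rose, and 3.72% of all genes rose and 1.35% fell (5.06% in either direction). The median of the members was 0.98 and that of all genes was 0.018. H2-D1, H2-K1, Tap1 and Psmb8 were wholly above WT/D-45113, which held for 0.993% of all genes.

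By role, the light and heavy chains were 1.9-fold to 2.39-fold higher in 5xFAD/D-45113. B2m was 1.03 higher on the log2 scale (SE 0.139, edgeR adjusted p = 3.32e-06), H2-D1 1.26 (SE 0.164, edgeR adjusted p = 1.7e-06) and H2-K1 0.92 (SE 0.149, edgeR adjusted p = 6.15e-05). Tap1 was 0.93 higher (edgeR adjusted p = 0.00662) and Tapbp 0.56 higher (edgeR adjusted p = 0.00858). Psmb8 was 1.18 higher (edgeR adjusted p = 0.000652) and Psmb9 1.33 higher (edgeR adjusted p = 0.00879). Tap2 (0.26, adjusted p = 0.322) and Psmb10 (0.26, adjusted p = 0.352) did not pass. Nlrc5 had 0, 0.430 and 1.02 CPM in WT/D-45113 and 0.382, 1.72 and 2.70 CPM in 5xFAD/D-45113 (log2 fold change 1.75, SE 0.528, edgeR adjusted p = 0.0457). The call of Nlrc5 was lost without any of 18 of the 32 mice (adjusted p from 0.0501 to 0.0942), namely WT/Veh 2M, WT/D-45113 2F, 3F, 4F, 1M, 2M and 4M, 5xFAD/Veh 2F, 3F, 4F, 1M, 2M and 3M, and 5xFAD/D-45113 1F, 3F, 4F, 1M and 2M. Microglia markers moved with these genes, with 6 of 10 higher in 5xFAD/D-45113 and summed levels of 261 to 579 CPM in WT/D-45113 and 670.1 to 1163 CPM in 5xFAD/D-45113. Also higher were 9 of 10 disease-associated microglia genes (median log2 fold change 2.11) and 2 of 7 astrocyte markers (median 0.34).

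Whether the genotype difference itself changed with treatment was tested as an interaction. All 10 genes had negative values, and 0 of 10 passed in a comparison where 0% of all genes did. At an unadjusted p under 0.05 there were 6 members (B2m, H2-D1, H2-K1, Tap1, Tap2 and Psmb8) and 1591 genes in all. The values were -0.94 for B2m (SE 0.195, edgeR adjusted p = 0.258), -0.89 for H2-K1 (SE 0.209, edgeR adjusted p = 0.262) and -1.20 for Tap1 (SE 0.302, edgeR adjusted p = 0.312), and Nlrc5 was nearest to 0 at -0.09. DESeq2 passed B2m (adjusted p = 0.0268) and H2-K1 (adjusted p = 0.0465). In edgeR, B2m passed once 5xFAD/D-45113 mouse 3F was left out (-1.04, adjusted p = 0.0441). The 4 groups shared 1 fit, and the comparisons above share their control mice.

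Females and males were compared in a model with 8 groups (4 mice each, 17831 genes). In the interaction of sex with genotype under Veh, 0 of 10 members passed with edgeR and 0 with DESeq2, and 0% of all genes passed with edgeR (1612 genes at an unadjusted p under 0.05). Tapbp had the lowest unadjusted p. It had 30.1 ± 1.48 CPM in WT/Veh females and 73.3 ± 14.3 CPM in 5xFAD/Veh females (SD, n = 4), against 38.6 ± 4.57 CPM and 56.3 ± 4.48 CPM in males. The difference in log2 fold change, female minus male, was 0.72 (SE 0.22, edgeR adjusted p = 0.399).

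In the interaction of sex with treatment in 5xFAD mice 0 of 10 members and 0% of all genes passed (963 genes at an unadjusted p under 0.05). H2-D1 had 169 ± 52.1 CPM in 5xFAD/Veh females and 139.8 ± 41.5 CPM in 5xFAD/D-45113 females, against 224 ± 60.7 CPM and 122 ± 21.4 CPM in males. The difference between the sexes was 0.62 (SE 0.31, edgeR adjusted p = 0.923).

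The inducible subunits take the place of constitutive ones in the proteasome, Psmb8 that of Psmb5, Psmb9 that of Psmb6 and Psmb10 that of Psmb7. Their ratios were therefore computed in each mouse from FPKM values with 0.1 added, and compared with 2-sided exact permutation tests, adjusted over 12 tests (3 ratios in 4 comparisons). Psmb5, Psmb6 and Psmb7 themselves passed in 0 of the 4 comparisons. The ratios are of RNA from all cells of the tissue together, so they also depend on its cell mix. The part of microglia and other cells in the ratios was not tested.

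Psmb8 was 0.932% to 1.74% of Psmb5 in WT/Veh mice (median 1.38%) and 4.12% to 6.95% in 5xFAD/Veh mice (median 4.80%), without overlap. The difference was 1.93 on the log2 scale (exact permutation test, adjusted p = 0.000622, from the smallest p that 8 against 8 mice can give, 0.000155). With D-45113 the share was 2.47% to 4.61% in 5xFAD mice (median 3.51%), which was 0.54 lower on the log2 scale, a difference of -0.54 (exact permutation test, adjusted p = 0.00311). It stayed wholly above the 0.645% to 2.20% of WT/D-45113 mice (difference 1.33, exact permutation test, adjusted p = 0.000622).

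Psmb9 was 1.05% of Psmb6 at the median in WT/Veh (0.453% to 1.99%) and 3.48% in 5xFAD/Veh (2.10% to 7.53%), without overlap (difference 1.83, exact permutation test, adjusted p = 0.000622). The 0.1 added was not small beside Psmb9 in WT/Veh mice (0.069 to 0.498 FPKM), so these shares and differences depend on it. In 5xFAD/D-45113 it was 2.49% (1.21% to 2.97%), and the difference from 5xFAD/Veh was -0.72 (exact permutation test, adjusted p = 0.0256). Leaving out 5xFAD/D-45113 mouse 1M, the lowest, moved the adjusted p to 0.0511. The difference from WT/D-45113 (median 1.13%) was 1.05 (exact permutation test, adjusted p = 0.00311).

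Psmb10 was nearly as high as Psmb7 per length. Its median share was 67.7% in WT/Veh mice, 87.9% in WT/D-45113 mice, and it was 107% for 5xFAD/Veh mice and 85.9% for 5xFAD/D-45113 mice, with overlap between all groups. The difference passed for 5xFAD/Veh against WT/Veh (0.66, exact permutation test, adjusted p = 0.00187). It also passed for WT/D-45113 against WT/Veh (0.36, exact permutation test, adjusted p = 0.027), which neither of the other ratios did (0.07 and 0.06, adjusted p = 0.843 for both). This WT difference was lost without WT/Veh mouse 3M (adjusted p = 0.0504) or 4M (0.0506), or without WT/D-45113 mouse 1F (0.0536), 4F (0.0501), 1M (0.0534) or 2M (0.0562). In 5xFAD mice the treatment difference was -0.24 (exact permutation test, adjusted p = 0.131), and it passed without 5xFAD/Veh mouse 2M (adjusted p = 0.0359).

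**Figure D4:**
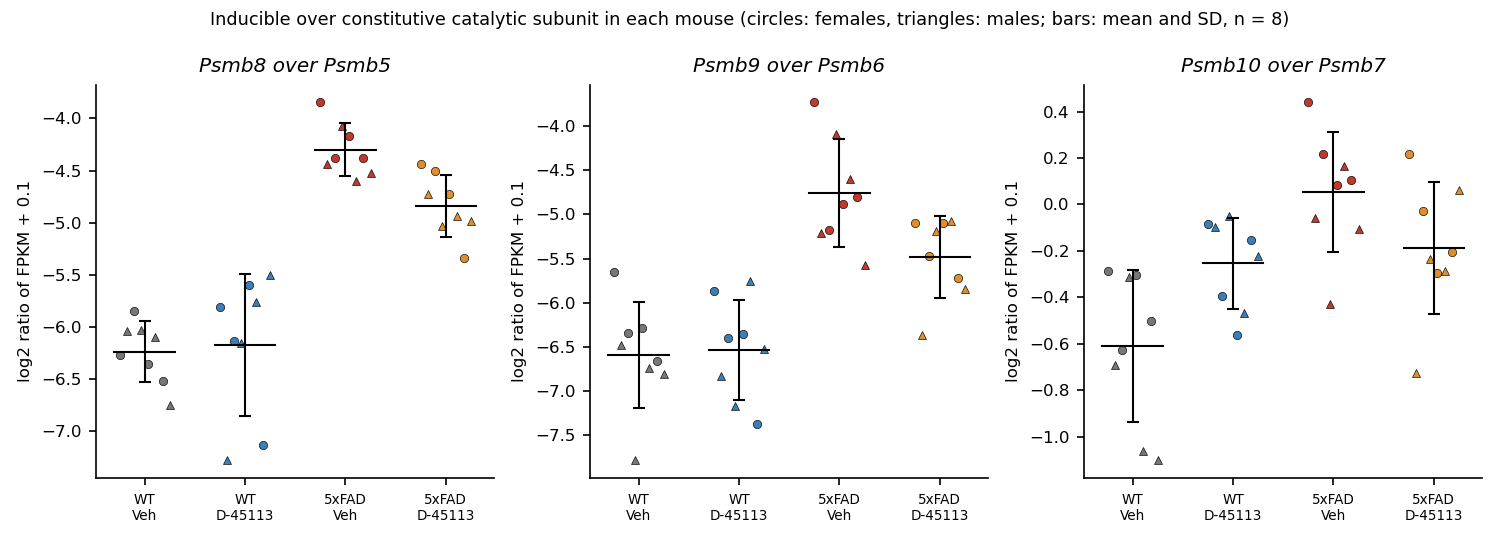
log2 ratio of each inducible to its constitutive catalytic subunit (FPKM + 0.1) in each mouse. Circles are females, triangles males, and bars give the mean and SD (n = 8). For Psmb8 over Psmb5 the 5xFAD/Veh mice sit from -4.60 to -3.85 and the WT/Veh mice from -6.75 to -5.85.

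The balance of the class I chains was read from ratios. B2m FPKM divided by the sum of H2-D1 and H2-K1 was 3.27 ± 0.469 in WT/Veh mice, 3.59 ± 0.705 in WT/D-45113 mice, and it was 3.32 ± 0.452 for 5xFAD/Veh mice and 3.28 ± 0.573 for 5xFAD/D-45113 mice (SD, n = 8). These means lay within 1 SD of each other while B2m itself ran from 84.4 to 484 CPM. The log2 ratio of H2-D1 to H2-K1 was 0.26 ± 0.169 in WT/Veh mice, 0.31 ± 0.221 in WT/D-45113 mice, and it was 0.46 ± 0.314 for 5xFAD/Veh mice and 0.63 ± 0.299 for 5xFAD/D-45113 mice, with overlapping ranges. No test was run on either ratio.

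Other genes of the pathway were read from fixed lists. Of 18 class I heavy chain genes, including H2-D1 and H2-K1, 11 could be tested and 8 rose in 5xFAD/Veh against WT/Veh, with a median log2 fold change of 1.58. Beyond the members, those with the smallest p were H2-T23, a nonclassical chain recognised by NK cell receptors (1.58, edgeR adjusted p = 5.45e-08), and H2-Q4 (1.80, edgeR adjusted p = 3.99e-06). With D-45113 in 5xFAD mice 3 of 11 fell, which were H2-D1, H2-K1 and H2-T23 (-0.64, edgeR adjusted p = 0.0325). The call of H2-T23 was lost without 5xFAD/Veh mouse 1F, 4F or 2M or 5xFAD/D-45113 mouse 1F, 4F or 1M (adjusted p from 0.0548 to 0.0811). Without both 1M and 4F its adjusted p was 0.146. Against WT/D-45113, 8 of 11 were higher in 5xFAD/D-45113 mice, H2-Q6 by 1.59 (edgeR adjusted p = 0.00135) and H2-T23 by 0.86 (edgeR adjusted p = 0.00204). Among the 8, H2-T22 (0.43) lost its call without any of 11 mice and kept it in 7 of 17 other settings, and H2-Q7 (1.49) lost it without any of 6 mice and kept it in 10 of 17.

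The general machinery of the endoplasmic reticulum moved little. Of 7 other loading and trimming genes 1 rose in 5xFAD/Veh, Erap1, the aminopeptidase that trims peptides (0.56, edgeR adjusted p = 0.0224), and this call was lost without WT/Veh mouse 4F, 1M or 4M (adjusted p from 0.0514 to 0.0578). Calr, the chaperone calreticulin, had a log2 fold change of -0.39 with D-45113 in 5xFAD mice (edgeR adjusted p = 0.051). Of 11 core proteasome subunits shared by both forms, 0 passed in any of the 4 comparisons. Among 6 activator and assembly genes, Psme1, a subunit of the interferon-induced activator, rose in 5xFAD/Veh (0.48, edgeR adjusted p = 0.00602).

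Transcription factors that act on class I promoters followed in part. Of 15 tested, 4 rose in 5xFAD/Veh, among them Irf9 (1.54, edgeR adjusted p = 1.94e-09), Irf8 (1.96, edgeR adjusted p = 6.14e-09) and Irf1 (1.12, edgeR adjusted p = 0.00254). Irf9 belongs to a complex through which interferon receptors signal, and Irf8 is also a factor of the microglial lineage. With the microglia score as a covariate, which did not overlap between these groups, Irf8 (1.07, adjusted p = 0.068) and Irf1 (1.16, adjusted p = 0.233) did not pass. With D-45113 in 5xFAD mice 3 of 15 fell. These included Irf8 (-0.86, edgeR adjusted p = 0.0113) and Stat2 (-0.72, edgeR adjusted p = 0.0374), while Irf1 was at -0.81 (edgeR adjusted p = 0.0508). Stat2 lost its call without 5xFAD/Veh mouse 1F, 2F, 3F or 1M or 5xFAD/D-45113 mouse 2F, 3F or 4F (adjusted p from 0.0617 to 0.0923). Rfx5, Rfxank and Rfxap, whose products bind the X box beside NLRC5, did not pass in these comparisons (log2 fold changes from -0.28 to 0.17). Of 7 interferon receptor and kinase genes, Ifngr1 rose in 5xFAD/Veh (0.38, edgeR adjusted p = 0.0163), and its call was lost without 5xFAD/Veh mouse 4F (adjusted p = 0.0516), with no filter on low counts (0.115) and with thalamus and choroid plexus scores as covariates (0.0733).

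**Figure D5:**
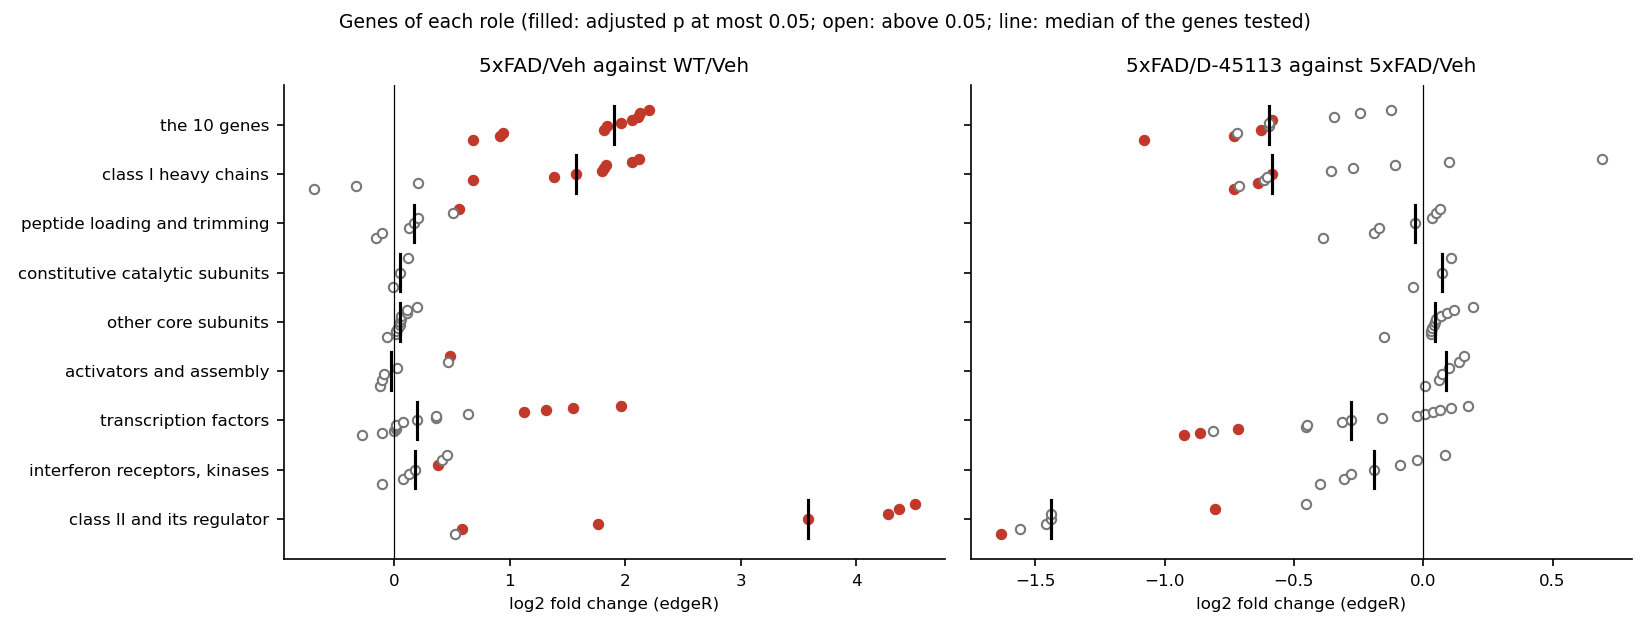
edgeR log2 fold changes of genes grouped by role, in the genotype comparison under vehicle and the treatment comparison within 5xFAD. Each point is a gene, filled where the adjusted p is at most 0.05, and the line is the median of the genes tested. In the first comparison the members have a median of 1.90 and the 11 other core proteasome subunits one of 0.049.

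Class II genes, which present peptides taken up from outside the cell, had log2 fold changes on either side of those of the class I genes. Of 7 listed, 6 rose in 5xFAD/Veh, led by Cd74 (4.51, edgeR adjusted p = 1.28e-07), H2-Ab1 (4.37, edgeR adjusted p = 1.73e-07) and H2-Aa (4.28, edgeR adjusted p = 9.87e-07). H2-DMb1 (1.77) and H2-DMa (0.59) rose less, and Ciita, the class II regulator, was at 0.53 (edgeR adjusted p = 0.838). With the microglia score as a covariate, which did not overlap between these groups, the log2 fold change of Cd74 was 2.86 (edgeR adjusted p = 0.0582). With D-45113 in 5xFAD mice 2 of 7 fell, H2-DMa (-0.80, edgeR adjusted p = 0.00276) and H2-Eb1 (-1.63, edgeR adjusted p = 0.0423). The call of H2-Eb1 was lost without any of 8 mice (5xFAD/Veh 3F and 2M, 5xFAD/D-45113 1F, 2F, 4F, 1M, 2M and 4M, adjusted p from 0.0564 to 0.21), and it was kept in 4 of 17 other settings (adjusted p up to 0.512). Mr1, a class I-like molecule that presents vitamin B metabolites, went the other way and rose with D-45113 in 5xFAD mice (0.92, edgeR adjusted p = 0.0168), a call lost when 2M of 5xFAD/D-45113 was left out (adjusted p = 0.0534).

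The genes whose pattern over the 32 mice was most like each member were found by the root mean square difference of log2 CPM, each gene centred on its mean. B2m was nearest to C1qb (0.281), Itgb2 (0.282) and C1qc (0.293), and H2-D1 to C1qc (0.265). H2-K1 was nearest to H2-T23 (0.279), Tap1 to Irgm1 (0.358), an interferon-inducible GTPase, and Tapbp to Lgmn (0.21), a lysosomal protease. Psmb8 was nearest to C1qa (0.404), Psmb9 to H2-DMb1 (0.54), Psmb10 to Shisa5 (0.243) and Nlrc5 to H2-Q4 (0.78). Among the members themselves the closest pair was B2m and H2-K1 (0.214), and the nearest member to Tap2 was Tapbp (0.301) rather than Tap1. These are descriptions over mice of 4 groups, and the group differences enter them.

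Mice within a group did not rank alike across the 10 genes. In 5xFAD/Veh mouse 1F was the lowest of its group for B2m (301 CPM), H2-D1 (101 CPM) and H2-K1 (112 CPM). It was at the same time the highest for Tap1 (37.7 CPM, others 10.2 to 19.6), Tap2 (16.8 CPM, others 10.5 to 13.4), Psmb9 (10.01 CPM, others 3.84 to 8.31) and Nlrc5 (5.03 CPM, others 1.23 to 3.13). The same mouse had 23.99 CPM of Irf1 (others 3.78 to 9.72) and 24.8 CPM of Stat2 (others 10.6 to 21.8). In 5xFAD/D-45113, mouse 2F was the highest for 5 of the 10 genes and mouse 1M the lowest for 5.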

How the data were processed

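RNA was extracted from microdissected hippocampi, and Novogene prepared, sequenced and mapped the libraries (mm10 per the processing notes). Which aligner and counter were used is not given in the sources used here. Per gene, the authors deposited unnormalized counts and FPKM values, which are scaled by gene length and mapped reads. The members, lists, tests and alternatives were chosen with earlier results of these data known. The count models were run with edgeR 4.0.16 under R 4.3.3 (filterByExpr, TMM, robust quasi-likelihood, 4 groups, or 8 groups by sex), and p-values were adjusted over all genes tested and called at 0.05. The SE is the log2 fold change over the root of F. Ratios used FPKM + 0.1. Marker scores are means of centred log2 CPM (prior count 2). Motifs were searched on both strands of the 250 bases upstream. The text names all members, up to 4 genes of each list by smallest p in a comparison, and the 3 genes most like each member. Alternatives were limma 3.58.1 (voom, and trend on log2 FPKM), DESeq2 1.42.0, RLE factors, other filters, sex, replicate or marker scores as terms, 1 sex only, and mice left out. The fits were tested on simulated counts. Python 3.11.15 and matplotlib 3.10.9 were used for ratios and figures. Precision is limited by counts for Nlrc5 and Psmb9. P-values set the differences between groups against the spread between these mice. Some genes that were measured are not reported here.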

Additional observations from a re-analysis of the deposited data

Results flagged for a closer look

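The level of each member and the log2 ratio of each inducible to its constitutive subunit were examined for a mouse far from the 7 others of its group. The measure was the gap to the nearest mouse over the whole range (52 groups of 8 mice, critical value 0.526). This picked out 5 values. The critical value picks out about 1 in 20 groups by chance where values are normally distributed and independent, which was not checked here. In WT/D-45113, B2m was 163.9 CPM in mouse 3M, with the next mouse at 124.4 CPM (gap over range 0.537). In 5xFAD/Veh, mouse 1F had 37.67 CPM of Tap1 against 19.56 CPM in the next mouse (0.659) and 16.76 CPM of Tap2 against 13.44 CPM (0.528). In 5xFAD/D-45113, mouse 2F had 200.3 CPM of H2-D1 against 142.7 CPM in the next mouse (0.567) and 13.37 CPM of Psmb8 against 9.045 CPM (0.607). All 5 were the highest of their group. The causes were not tested.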

How the results depend on the processing

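Of the settings other than leaving out 1 mouse, the count of members that rose in 5xFAD/Veh against WT/Veh (10) was 6 with the microglia score as a covariate, 8 in females only and 8 in males only, and 10 in the others. The count that fell in 5xFAD/D-45113 against 5xFAD/Veh (4) was 0 in females only and 0 in males only, 1 with thalamus and choroid plexus scores, 1 with the microglia score, and 2 with 1M and 4F of 5xFAD/D-45113 left out. The count higher in 5xFAD/D-45113 than in WT/D-45113 (8) was 3 in females and 4 in males. For the interaction (0 lower), DESeq2 gave 2, males only 1 and leaving out 5xFAD/D-45113 mice 3F and 4F gave 1, and leaving out single mice gave 0 to 1. Signs turned for Psmb10 in 5xFAD/D-45113 against 5xFAD/Veh (0.001483, thalamus and choroid plexus scores) and, in WT males under D-45113, for H2-D1 (-0.05299), H2-K1 (-0.06327), Tapbp (-0.2671) and Nlrc5 (0.2452). The interaction of Nlrc5 was 0.02529 with voom and 0.4752 in females, and that of Tapbp was 0.1081 in males. With voom, sex by genotype was -0.01215 for Tap1 and sex by treatment 0.1114 for Nlrc5. The causes were not tested.

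For the ratios, FPKM + 1 gave -0.4444 for Psmb9 over Psmb6 in 5xFAD/D-45113 against 5xFAD/Veh (adjusted p = 0.072, exact permutation test) and -0.003316 in WT. Over the 6 settings, Psmb9 over Psmb6 ran from 0.8363 to 2.139 in 5xFAD/Veh against WT/Veh. In 5xFAD/D-45113 against WT/D-45113 this ratio ran from 0.3952 to 1.252. With 4 against 4 mice of 1 sex no ratio passed after adjustment, as the exact permutation test then gives few possible values (lowest adjusted p 0.0571 in females and 0.0857 in males). Females only gave 2.049, -0.5575 and 1.413 for Psmb8 over Psmb5 (genotype under vehicle, treatment within 5xFAD, genotype under D-45113), 1.582, -0.6958 and 1.153 for Psmb9 over Psmb6 (-0.2663 in WT), and 0.6408 for the first and 0.1307 in WT for Psmb10 over Psmb7. Males only gave 1.82, -0.5134 and 1.254, then 2.085, -0.7518 and 0.9482, and 0.6851, 0.5825 in WT and -0.08709 against WT/D-45113 for Psmb10 over Psmb7.

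Leaving out 1 mouse at a time also ended or made calls of H2-D1 (adjusted p from 0.00938 to 0.0875) and Psmb8 (0.047 to 0.186) under treatment in 5xFAD, of Nlrc5 in both genotype comparisons (0.0119 to 0.0837 with Veh, 0.0231 to 0.0942 with D-45113) and of B2m in the interaction (0.044 to 0.408), all edgeR. Of the ratios and of values that crossed 0, the ranges were these. Psmb10 over Psmb7 ran from -0.3089 to -0.163 in 5xFAD/D-45113 against 5xFAD/Veh and from 0.2863 to 0.403 in WT, Psmb9 over Psmb6 from -0.8397 to -0.5767 and from -0.1112 to 0.1942, and Psmb8 over Psmb5 from -0.02938 to 0.224 in WT. Psmb9 ran from -0.01703 to 0.2688 in WT and Nlrc5 from -0.3065 to 0.1472 in the interaction. Sex by treatment ran from -0.05169 to 0.3702 for B2m, -0.2428 to 0.122 for H2-K1, -0.3502 to 0.4852 for Nlrc5, -0.000494 to 0.3999 for Psmb8, -0.6337 to 0.1617 for Tap1 and -0.1626 to 0.05101 for Tap2. Sex by genotype ran from -0.09969 to 0.2371 for Psmb10, -0.322 to 0.2771 for Psmb9 and -0.3458 to 0.4372 for Tap1.

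Mice of the same replicate label in different groups deviated together little more than others (mean r 0.053 over 48 pairs, from -0.234 to 0.282, against -0.007 over 336 pairs). Mice of the same label are also of the same sex, so this comparison cannot show whether they were paired. With the replicate block the counts were 10, 4, 0 and 7 in the 4 comparisons, and Nlrc5 in 5xFAD/D-45113 against WT/D-45113 (1.70, adjusted p = 0.0657) was the call it ended among the members.

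Counts over all genes moved as well. In 5xFAD/Veh against WT/Veh (611 higher, 35 lower) they were 317 and 11 in females only and 382 and 96 in males only, 72 were lower with DESeq2, and 173 were higher with the microglia score. In 5xFAD/D-45113 against 5xFAD/Veh (370 higher, 292 lower) they were 635 and 491 with DESeq2, 220 and 159 with no filter, 70 and 46 in females only, 0 and 0 in males only, 1 and 1 with thalamus and choroid plexus scores, 5 and 14 with the microglia score, 130 and 101 with 3F and 4F left out, and 106 and 82 with 1M and 4F left out, and limma on log2(FPKM + 1) with no filter gave 221 higher. In WT/D-45113 against WT/Veh (3 higher, 1 lower) they were 16 and 10 with DESeq2, 15 and 25 in males only, and 0 and 0 with voom. In 5xFAD/D-45113 against WT/D-45113 (622 higher, 225 lower) they were 405 and 105 with only the groups compared, 189 and 18 in females only and 192 and 12 in males only, and the lower count was 376 with DESeq2, 124 with no filter, 72 with thalamus and choroid plexus scores, 412 with the microglia score, 64 with 3F and 4F left out and 78 with 1M and 4F left out. The interaction (0 and 0) gave 4 and 10 with DESeq2 and 29 and 14 in males only.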
